A study of Sus scrofa with 4 samples.

Results

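Pericytes and smooth muscle cells of the pig endometrium libraries, together called mural cells here, made up 759 of the 16946 endometrial cells kept here. No position in the tissue was measured, so smooth muscle of vessel walls cannot be told apart from other smooth muscle. They were 305 of 8962 cells in the day 12 library and 454 of 7984 cells in the day 9 library. A kept cell had at least 1000 UMIs (unique molecular identifiers, each standing for 1 captured RNA molecule), at least 500 genes and at most 20% mitochondrial UMIs. A mural cell then needed at least 5 UMIs, and at least 5000 CPM (counts scaled to a total of 1000000 UMIs, here those of the cell), summed over ACTA2, TAGLN, RGS5, MYH11 and NOTCH3. It also needed at least 1 UMI of RGS5, MYH11 or NOTCH3, and fewer than 3 UMIs summed over the endothelial genes PECAM1, CDH5, EGFL7 and EMCN. Each mural cell was called positive when it had a UMI of MYH11 or DES, as 503 cells did, and negative when it had neither, as 256 cells did. The cells were thus chosen by their measured UMIs of these 10 genes, whose values are given as description only.

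The study profiled single cells of pig embryos and of pig endometrium at a pair of stages of early pregnancy, and the endometrial libraries are the ones described here. The day 12 group is 1 library of endometrium from day 12 of pregnancy, and the day 9 group is 1 library of endometrium from day 9. For both, tissue was minced, digested with collagenases II and IV, dispase and DNase, cleared of red cells and loaded on the 10x Chromium 3' version 3 system. The labels name no treatment or genotype, and do not say how many animals gave each library or whether animals were pooled. With 1 library per day there is no replicate, so no difference between days was tested, and day cannot be told apart from animal, dissection or library preparation. Intervals in parentheses are exact 95% intervals that cover counting error only, and any fold that is given without one has no error estimate.

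Pericytes sit on capillaries and small venules inside the basement membrane they share with the endothelium, and are held there by PDGFB signalling to the receptor PDGFRB and by Notch signalling through NOTCH3. Vascular smooth muscle cells surround arterioles and arteries and contract through smooth muscle actin (ACTA2) and smooth muscle myosin (MYH11), with calponins, transgelin (TAGLN) and myosin light chains around them. In the pig the blastocyst elongates and begins to signal to the uterus around the later of these days, and the placenta remains superficial, so that the uterine vessels are not invaded.

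Depth was similar in the mural cells of both libraries. Their medians were 2115 UMIs and 1080.0 genes per cell on day 12, and 2029.5 UMIs and 1019.5 genes per cell on day 9. All other cells had medians of 2236 UMIs on day 12 and 2681 UMIs on day 9. The UMIs of the mural cells summed to 753298 on day 12 and 1020366 on day 9. No mural cell shared its barcode with a mural cell of the other library, although 105 of the kept cells shared a barcode between the libraries. Levels of a kind of cell are the CPM of the counts of all its cells added up within a library. Stromal, endothelial, epithelial and immune marker cells are other cells with at least 3 UMIs of a few markers of that type. Cells that also had 3 UMIs of another type were left out, except that stromal UMIs were allowed in endothelial, epithelial and immune marker cells. At least 2% stromal UMIs were found in 199 of 1144 immune marker cells on day 12 and in 90 of 838 on day 9. Levels are relative within a class, and are compared between classes and days for the same gene, not between genes.

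The rule genes lie on different chromosomes of the Sscrofa11.1 pig assembly. RGS5, a regulator of G protein signalling typical of pericytes, is on chromosome 4 between 87286953 and 87340816. MYH11 is on chromosome 3 between 7002667 and 7143093, and ACTA2 is on chromosome 14 between 100868145 and 100886732. NOTCH3 is on chromosome 2 between 62364507 and 62402348. These positions are RefSeq's and cover whole genes, introns and UTRs included.

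The 5 rule markers summed to 15448 CPM in day 12 mural cells and 17187 CPM in day 9 mural cells. In all other cells they summed to 201 CPM on day 12 and 461 CPM on day 9. A median mural cell held 33 marker UMIs on day 12 and 32 on day 9. The lowest mural cells stood at 5019.82 CPM of the markers on day 12 and 5020.92 on day 9. The nearest cells outside the level stood at 4849.02 on day 12 and 4981.32 on day 9. The cells that met every criterion but the level numbered 94 on day 12 and 432 on day 9. Of the mural cells, 45 on day 12 and 91 on day 9 lay between 5000 and 7500 CPM, so the edge of the population was more crowded on day 9.

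The pericyte and smooth muscle label could be checked on genes that the rule did not use. The pericyte gene HIGD1B had a UMI in 47.2% of day 12 mural cells and 45.2% of day 9 mural cells. In immune cells, which should lack it, the share was 1.05% on day 12 (median depth 2349 UMIs) and 2.86% on day 9 (median depth 2207 UMIs). After each cell was thinned to 1000 UMIs these shares were 32.8% of day 12 and 34.1% of day 9 mural cells, and 0.437% of day 12 and 1.19% of day 9 immune cells. Endothelial marker cells had a UMI of HIGD1B in 3.86% on day 12 and 24.1% on day 9. Thinned, these endothelial shares were 0.482% on day 12 and 9.02% on day 9. The smooth muscle gene calponin 1 (CNN1) had a UMI in 37.0% of day 12 and 47.1% of day 9 mural cells, and in 0.350% of day 12 and 1.31% of day 9 immune cells. PDGFRB, the receptor that tethers pericytes to capillaries, was detected in 44.9% of day 12 and 34.6% of day 9 mural cells, but also in 33.2% of day 12 and 47.2% of day 9 stromal marker cells. It therefore did not set the mural cells apart from stroma. COX4I2, another pericyte gene, had a UMI in 57.7% of day 12 and 49.6% of day 9 mural cells. Its shares in stromal marker cells were 3.07% on day 12 and 30.1% on day 9. HIGD1B and CNN1 were thus found in a larger share of mural than of immune cells, but not in every mural cell. For the summed pericyte genes, the first quartile of negative cells was 37.3 UMIs per 10000 on day 12 and 18.8 on day 9. The lowest negative cells had 0 such UMIs on both days, so the label is not shown for each cell.

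Markers of other cells were counted in every mural cell. The 14 stromal markers gave a median of 0.805% of the UMIs of a day 12 mural cell and 0.679% of a day 9 mural cell. In all other cells, most of which were stromal, the median was 4.86% on day 12 and 3.87% on day 9. At least 3 UMIs of the 12 endothelial markers occurred in 14 mural cells (4.59%) on day 12 and in 8 (1.76%) on day 9. At least 3 macrophage UMIs occurred in 14 cells (4.59%) on day 12 and in 27 (5.95%) on day 9. The matching numbers for 13 T and NK cell markers were 21 cells on day 12 and 10 on day 9, and those for epithelial markers were 1 cell on day 12 and 13 on day 9. The marker list of ciliated cells reached 3 UMIs in 35 mural cells (11.5%) on day 12 and in 116 (25.6%) on day 9, and that of B and plasma cells in 29 (9.51%) on day 12 and in 87 (19.2%) on day 9. Most UMIs of these lists came from 1 gene each. TPPP3 of the ciliated list was at 417 CPM in day 12 mural cells and 759.5 CPM in day 9 mural cells, and at 223 CPM in day 12 and 584 CPM in day 9 stromal marker cells. JCHAIN of the B and plasma cell list was at 316 CPM in day 12 mural cells and 524 CPM in day 9 mural cells, and at 8037 CPM in day 12 and 8616 CPM in day 9 stromal marker cells. By kind, at least 3 UMIs of the ciliated list were found in 13.8% of positive and 7.69% of negative cells on day 12, and in 32.7% of positive and 9.35% of negative cells on day 9. Summed over all mural cells, 12 matched T and NK markers gave 508 CPM in the day 12 and 152 CPM in the day 9 library, and 10 matched epithelial markers gave 65.05 CPM in the day 12 and 323 CPM in the day 9 library. No UMI was found for 3 of 4 matched glial markers, 3 of 4 matched erythroid markers and 2 of 5 lymphatic markers in the mural cells of either library. Whether cells with markers of other types are doublets or carry free RNA cannot be told apart here, and no doublet caller was applied.

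The 2 kinds of mural cell differed in how their marker UMIs were made up, which is partly what the split selected. ACTA2 and TAGLN together gave a median of 143 UMIs per 10000 in positive and 17.0 in negative cells on day 12. On day 9 the medians were 150 UMIs per 10000 in positive cells and 23.8 in negative cells. RGS5 ran the other way, with medians of 19 UMIs per 10000 in positive and 63.3 in negative cells on day 12, and of 18.5 in positive and 45.5 in negative cells on day 9. RGS5 UMIs outnumbered those of ACTA2 and TAGLN together in 12 of 188 positive cells (6.38%, interval 3.34 to 10.9) and in 89 of 117 negative cells (76.1%, 67.3 to 83.5) on day 12. On day 9 this held for 23 of 315 positive cells (7.30%, 4.68 to 10.8) and 87 of 139 negative cells (62.6%, 54.0 to 70.6).

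**Figure D1:**
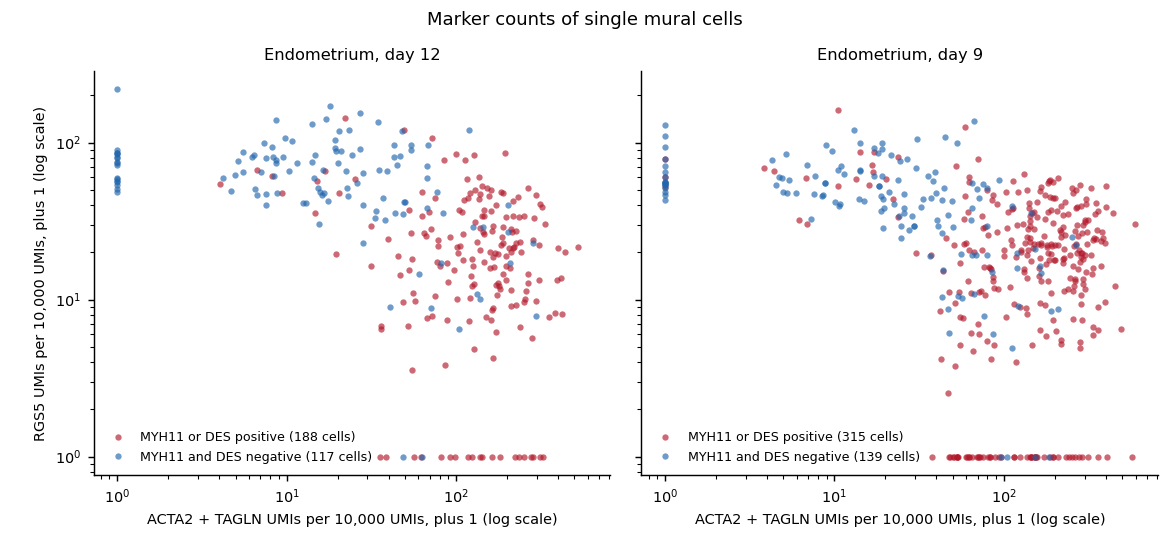
RGS5 UMIs against ACTA2 plus TAGLN UMIs in each mural cell, both per 10000 UMIs of the cell with 1 added and on log axes, with day 12 on the left and day 9 on the right. Positive cells (188 on day 12, 315 on day 9) lie to the right at medians of 143 and 150 UMIs of ACTA2 plus TAGLN, and negative cells (117 on day 12, 139 on day 9) lie higher and to the left at 17.0 and 23.8.

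The most frequent combination of the 3 specific rule genes was RGS5+ MYH11+ NOTCH3+, found in 116 cells (38.0%, 32.6 to 43.7) on day 12 and in 190 cells (41.9%, 37.3 to 46.5) on day 9. RGS5+ MYH11- NOTCH3+ cells numbered 102 (33.4%, 28.2 to 39.0) on day 12 and 85 (18.7%, 15.2 to 22.6) on day 9. RGS5+ MYH11- NOTCH3- cells, which had RGS5 alone of these genes, numbered 29 (9.51%, 6.46 to 13.4) on day 12 and 70 (15.4%, 12.2 to 19.1) on day 9. RGS5- MYH11+ NOTCH3- cells numbered 8 (2.62%, 1.14 to 5.10) on day 12 and 38 (8.37%, 5.99 to 11.3) on day 9. NOTCH3, the Notch receptor of mural cells, had a UMI in 77.8% of negative cells on day 12 and in 55.4% on day 9. In positive cells the NOTCH3 shares were 75% on day 12 and 68.9% on day 9. After thinning, NOTCH3 was found in 58.1% of negative cells on day 12 and 36.7% on day 9. A UMI of NOTCH3 was also found in 1.57% of day 12 and 2.15% of day 9 immune cells, well below either value.

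Set against all other endometrial cells, mural cells carried 138 of 2199 tested genes (6.28%) at a level at least 4-fold higher in both libraries. A gene was compared at 50 CPM or more in the mural cells of both libraries, with the 5 rule markers, the 4 endothelial rule genes, genes with no symbol and mitochondrial, ribosomal and haemoglobin genes left out, and 1 CPM was added before each log2 ratio. The median log2 ratio of mural over other cells across these genes was 0.18 on day 12 and 0.13 on day 9. The pericyte list held 12 of its 14 tested genes past 4-fold, with a median log2 ratio of 4.58 on day 12 and 3.34 on day 9. The contractile list held 13 of 21, with medians of 3.55 on day 12 and 3.23 on day 9. These lists were chosen for mural cells, so their shares describe the population and support nothing further.

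Among contractile genes, CNN1 stood at 297 CPM in mural and 2.39 CPM in other cells on day 12. On day 9 CNN1 stood at 656 CPM in mural and 9.06 CPM in other cells. This is 125-fold (93.1 to 169) higher on day 12 and 72.4-fold (62.1 to 84.5) higher on day 9. MYL9, the regulatory light chain of smooth muscle myosin, reached 1832 CPM in mural and 63.9 CPM in other cells on day 12, and 2234 CPM in mural and 83.4 CPM in other cells on day 9. ACTG2, the gamma actin of enteric and other visceral smooth muscle, was at 79.6 CPM in mural and 0.769 CPM in other cells on day 12, and at 154 CPM in mural and 1.84 CPM in other cells on day 9. PDLIM3, a PDZ and LIM domain protein of the actin cytoskeleton, was 88.8-fold (54.9 to 148) higher in mural cells on day 12 and 83.1-fold (53.1 to 134) higher on day 9. FHL5, a LIM domain cofactor of smooth muscle, was 48.9-fold (40.7 to 58.9) higher on day 12 and 49.4-fold (40.3 to 60.9) higher on day 9.

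Pericyte and Notch target genes showed the same kind of gap. HIGD1B was 71.9-fold (61.3 to 84.6) higher in mural than in other cells on day 12 and 28.4-fold (25.5 to 31.7) higher on day 9. HEY2, a transcriptional repressor induced by Notch, was at 163 CPM in mural and 3.40 CPM in other cells on day 12, and at 126 CPM in mural and 2.91 CPM in other cells on day 9. GJA4 encodes connexin 37, a gap junction protein of vessel walls that endothelial cells also make. It was 47.1-fold (41.6 to 53.3) higher in mural than in other cells on day 12 and 49.0-fold (43.7 to 55.0) higher on day 9, and it had a UMI in 16.2% of day 12 and 23.3% of day 9 endothelial marker cells. All 4 tested genes of the cyclic GMP list, which relaxes smooth muscle, were past 4-fold, and so were 3 of 6 tested Notch genes. None of the 11 tested stromal markers was past 4-fold. Stromal marker cells were 6345 of the 8657 other cells on day 12 and 5598 of 7530 on day 9. That outcome was therefore largely set by the comparison.

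Signal receptors were part of the mural profile as well. EDNRB, the endothelin receptor type B, stood at 546 CPM in mural and 19.4 CPM in other cells on day 12, and at 406 CPM in mural and 15.5 CPM in other cells on day 9. NPY1R, a receptor for the sympathetic transmitter neuropeptide Y, was 35.6-fold (23.4 to 54.4) higher in mural cells on day 12 and 72.7-fold (46.1 to 118) higher on day 9. RGS16, another regulator of G protein signalling, was 53.2-fold (46.3 to 61.1) higher on day 12 and 38.1-fold (34.5 to 42.2) higher on day 9. KCNAB1 encodes a beta subunit of voltage-gated potassium channels. It was 133-fold (80.6 to 229) higher in mural cells on day 12 and 98.2-fold (64.9 to 153) higher on day 9.

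The remaining genes that stood highest over the other cells were not classical mural markers. The fatty acid carrier FABP4 was at 86.3 CPM in mural and 0.607 CPM in other cells on day 12, and at 73.5 CPM in mural and 0.519 CPM in other cells on day 9. CCN3, a matricellular protein, was 128-fold (75.1 to 228) higher on day 12 and 145-fold (93.8 to 234) higher on day 9. ADIRF, a small protein named for adipogenesis, was 61.7-fold (56.9 to 66.9) higher on day 12 and 80.4-fold (74.7 to 86.5) higher on day 9. A2M, the protease inhibitor alpha-2-macroglobulin, reached 1999 CPM in mural and 81.3 CPM in other cells on day 12, and 1069 CPM in mural and 43.3 CPM in other cells on day 9. RERGL, OLFML2A, RCAN2 and ITIH4 completed the 20 genes with the greatest gap, with day 12 levels in mural cells of 356 CPM for RERGL, 280.1 CPM for OLFML2A, 238 CPM for RCAN2 and 3782 CPM for ITIH4.

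Within the mural cells, 160 of 2577 tested genes (6.21%) were at least 2-fold higher in positive than in negative cells in both libraries, and 74 (2.87%) were at least 2-fold lower in both. The median log2 ratio over all tested genes was 0.10 on day 12 and 0.01 on day 9. A gene was compared at 50 CPM or more in 1 of the kinds in both libraries, without MYH11 and DES. Contractile genes leaned towards positive cells: 11 of 21 were at least 2-fold higher in positive cells (ACTG2, CNN1, LMOD1, SYNPO2, MYL9, MYL6, MYLK, RBPMS2, NEXN, FLNA and CSRP1) and 1, PCP4, was at least 2-fold lower. The contractile medians were 1.21 on day 12 and 1.28 on day 9. The pericyte list leaned the other way, with 0 of 15 higher and 5 lower in positive cells (KCNJ8, HIGD1B, NDUFA4L2, HEYL and ITGA1), and medians of -0.86 on day 12 and -0.62 on day 9. Since the split used MYH11 and DES, a lean of their partner genes towards positive cells is a description of the split.

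Among the contractile genes, ACTG2 was at 126 CPM in positive and 3.53 CPM in negative cells on day 12, and at 210.4 CPM in positive and 3.58 CPM in negative cells on day 9. LMOD1, a leiomodin that nucleates smooth muscle actin filaments, was at 287 CPM in positive and 84.7 CPM in negative cells on day 12, and at 274 CPM in positive and 68.1 CPM in negative cells on day 9. MYLK, the myosin light chain kinase that starts contraction, was at 917 CPM in positive and 374 CPM in negative cells on day 12, and at 1172 CPM in positive and 448 CPM in negative cells on day 9. The ACTG2 level in negative cells rests on 1 UMI in each library. The counting intervals of all 3 ratios lay above 1 in both libraries, with MYLK at 2.45-fold (1.98 to 3.06) on day 12 and 2.62-fold (2.17 to 3.18) on day 9. PCP4, a small calmodulin-binding protein that is placed with smooth muscle genes, was 5.73-fold (2.87 to 12.4) lower in positive than in negative cells on day 12 and 5.35-fold (4.53 to 6.33) lower on day 9.

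Several pericyte genes of metabolism and ion channels were higher in negative cells. NDUFA4L2, a mitochondrial protein abundant in pericytes, was at 121 CPM in positive and 756 CPM in negative cells on day 12, and at 45.9 CPM in positive and 258 CPM in negative cells on day 9. KCNJ8, the pore subunit of the ATP-sensitive potassium channel of pericytes, was at 25.5 CPM in positive and 120.0 CPM in negative cells on day 12, and at 25.6 CPM in positive and 89.6 CPM in negative cells on day 9. HIGD1B was 4.42-fold (3.62 to 5.43) lower in positive cells on day 12 and 2.73-fold (2.34 to 3.17) lower on day 9. Its detection followed this, with a UMI in 30.9% of positive and 73.5% of negative cells on day 12, and in 37.1% of positive and 63.3% of negative cells on day 9. Of 6 tested ion channel genes, KCNAB1 and ITPR1, the calcium release channel of the sarcoplasmic reticulum, were at least 2-fold higher in positive cells, and KCNJ8 was lower.

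**Figure D2:**
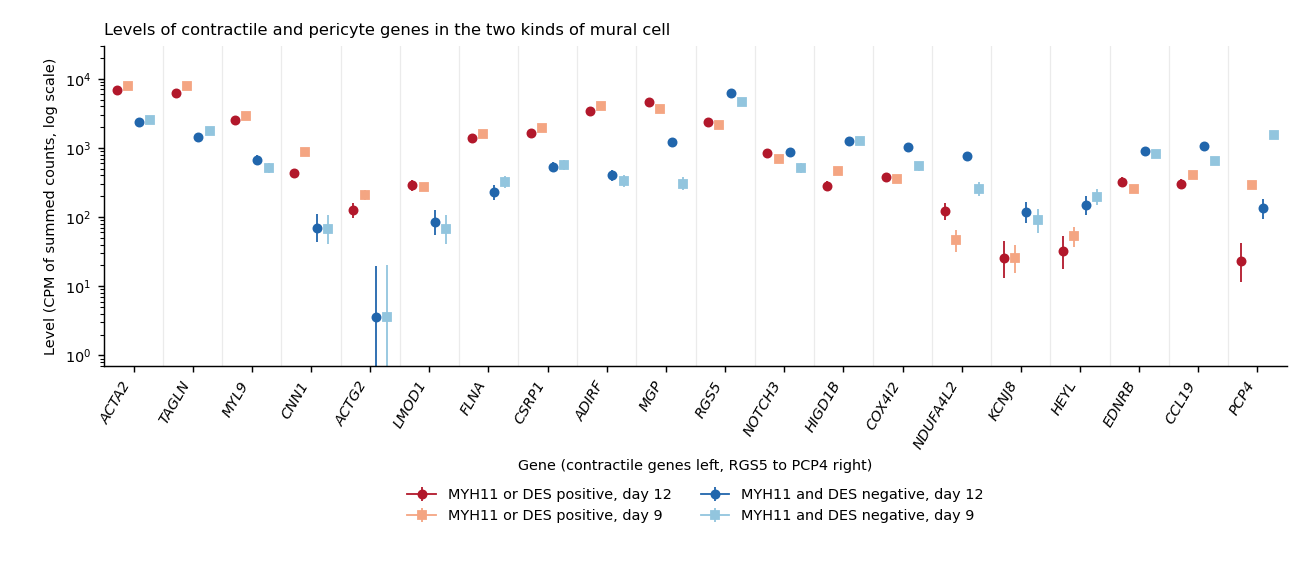
Levels of 20 genes in CPM, on a log axis, in positive and negative mural cells of the day 12 and day 9 libraries, each point a sum over all cells of its kind and each bar its exact 95% Poisson interval (an open triangle would mark a level of 0). ACTG2, CNN1 and LMOD1 lie higher in positive cells, whereas HIGD1B, NDUFA4L2 and PCP4 lie higher in negative cells of both libraries.

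Receptors that read vasoactive signals were unevenly shared between the kinds. Of 4 tested receptors, 3 were at least 2-fold lower in positive cells in both libraries: AGTR1, EDNRB and PTH1R. This held for 2.87% of all tested genes. AGTR1, the type 1 angiotensin II receptor, lies on chromosome 13 between 88934873 and 88980317. It was at 78.7 CPM in positive and 434 CPM in negative cells on day 12, and at 36.4 CPM in positive and 158 CPM in negative cells on day 9. EDNRB was at 323 CPM in positive and 914 CPM in negative cells on day 12, and at 255 CPM in positive and 806 CPM in negative cells on day 9. PTH1R, the receptor for parathyroid hormone and its related peptide, was at 134 CPM in positive and 307 CPM in negative cells on day 12, and at 95.8 CPM in positive and 287 CPM in negative cells on day 9. Conversely, RAMP1, a partner subunit of the receptor for calcitonin gene-related peptide, was 8.10-fold (4.13 to 18.1) higher in positive cells on day 12 and 6.98-fold (4.00 to 13.3) higher on day 9.

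The matrix genes split as well. Of 15 tested basement membrane genes, 13 were lower in positive than in negative cells in both libraries (29.9% of all tested genes were so), 2 of them by at least 2-fold (LAMC3 and NID1), and LAMB2 was at least 2-fold higher. LAMC3, a laminin gamma chain, was at 104 CPM in positive and 229 CPM in negative cells on day 12, and at 71.5 CPM in positive and 179 CPM in negative cells on day 9. LAMB2, the laminin beta chain of mature vessel walls, was at 61.7 CPM in positive and 21.2 CPM in negative cells on day 12, and at 117 CPM in positive and 39.4 CPM in negative cells on day 9. COL4A1, the main chain of type IV collagen, was at 823 CPM in positive and 2168 CPM in negative cells on day 12, and at 425 CPM in positive and 692 CPM in negative cells on day 9, which is under 2-fold on day 9. Among the enzymes that remodel matrix, ADAMTS1 was at least 2-fold higher in positive cells and MMP11, PLAT and LOXL2 were at least 2-fold lower. Of 19 tested interstitial matrix genes, MGP was at least 2-fold higher and LUM and COL6A3 were at least 2-fold lower.

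LUM, the keratan sulphate proteoglycan lumican, and COL6A3 are also made by stromal cells, and the stromal markers moved with the split. LUM was at 1291 CPM in positive and 4053 CPM in negative cells on day 12, and at 1248 CPM in positive and 3741 CPM in negative cells on day 9, against 3994 CPM in day 12 and 3542 CPM in day 9 stromal marker cells. The 14 stromal markers together had medians of 0.419% of UMIs in positive and 1.57% in negative cells on day 12, and of 0.503% in positive and 1.45% in negative cells on day 9. As a sum over cells, where a few positive cells with up to 12.0% stromal UMIs weigh more, the markers stood at 17289 CPM in positive and 16418 CPM in negative cells on day 12, and at 11884 CPM in positive and 18148 CPM in negative cells on day 9. At least 3 stromal UMIs were found in 96.8% of positive and 100% of negative cells on day 12, and in 97.5% of positive and 100% of negative cells on day 9. The part of stromal RNA in single genes was not tested, and the counts of genes past 2-fold without the 74 day 12 and 83 day 9 mural cells that had at least 2% stromal UMIs stayed within 1.5 times those given above. At least 3 macrophage UMIs were found in 8 of 188 positive cells (4.26%) and 6 of 117 negative cells (5.13%) on day 12, and in 23 of 315 positive cells (7.30%) and 4 of 139 negative cells (2.88%) on day 9. Of 4 tested macrophage genes, 3 were at least 2-fold higher in positive cells in both libraries, as were 6.21% of all tested genes. The macrophage markers summed to 530 CPM in positive and 311 CPM in negative cells on day 12. On day 9 they summed to 699 CPM in positive and 294 CPM in negative cells. The part of macrophage RNA in the genes higher in positive cells was not tested.

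Growth factor and adhesion genes added further contrasts. TGFB2 and TGFB3, ligands of the TGF-beta family, and LTBP1, which holds such ligands latent in the matrix, were the 3 of 11 tested TGF-beta and BMP genes at least 2-fold higher in positive cells. Across all tested genes, 6.21% were so. TGFB3 was at 236 CPM in positive and 60.02 CPM in negative cells on day 12, and at 399 CPM in positive and 86.0 CPM in negative cells on day 9. ITGA1, the collagen-binding integrin alpha 1, was at 99.99 CPM in positive and 244 CPM in negative cells on day 12, and at 40.5 CPM in positive and 122 CPM in negative cells on day 9, while CDH13 and ALCAM were at least 2-fold higher in positive cells. CXCL12, a chemokine that holds CXCR4-bearing leukocytes, was at 31.9 CPM in positive and 381 CPM in negative cells on day 12, and at 17.5 CPM in positive and 86.0 CPM in negative cells on day 9. HEYL was the only 1 of 7 tested Notch genes past 2-fold, at 31.9 CPM in positive and 148 CPM in negative cells on day 12, and at 52.6 CPM in positive and 197 CPM in negative cells on day 9. No tested PDGF gene or hormone receptor, of 4 in each list, passed 2-fold in both libraries.

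**Figure D3:**
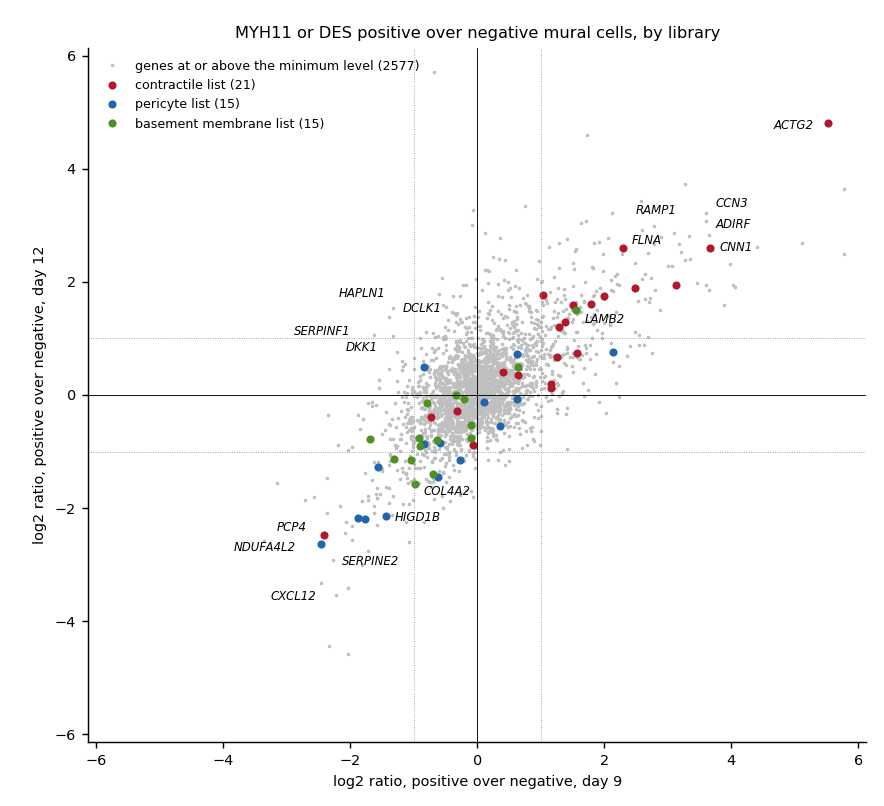
Log2 ratio of positive over negative mural cells for each of 2577 genes at 50 CPM or more, with day 12 on the vertical and day 9 on the horizontal axis. The 160 genes at least 2-fold higher in positive cells on both days lie at the upper right and include ACTG2 and CCN3, and the 74 genes at least 2-fold lower lie at the lower left and include NDUFA4L2, PCP4 and CXCL12.

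By size of the ratio, the 10 genes furthest above 2-fold in positive cells were ACTG2, GLDN, INPP4A, CCN3, ADIRF, SORBS2, VSIR, EFHD1, PDLIM3 and RAMP1. The 10 furthest below it were PLA2R1, ADAM22, NDUFA4L2, PCP4, GFRA2, SERPINE2, CXCL12, AGTR1, PID1 and LPL. GLDN, named gliomedin, was at 55.3 CPM in positive and 3.53 CPM in negative cells on day 12, and at 54.0 CPM in positive and 0 CPM in negative cells on day 9. Against a floor of 3 counts over the negative cells, that is at least 5.02-fold higher in positive cells on day 9. SORBS2, an adaptor of actin stress fibres, was at 262 CPM in positive and 35.3 CPM in negative cells on day 12, and at 345 CPM in positive and 39.4 CPM in negative cells on day 9. PLA2R1, a phospholipase A2 receptor, was at 19.1 CPM in positive and 120.0 CPM in negative cells on day 12, and at 5.40 CPM in positive and 64.5 CPM in negative cells on day 9. LPL, lipoprotein lipase, which releases fatty acids from circulating lipoproteins, was 4.77-fold (3.30 to 7.02) lower in positive cells on day 12 and 4.33-fold (2.37 to 8.12) lower on day 9. GFRA2, a coreceptor of neurturin, was at 2.13 CPM in positive and 67.1 CPM in negative cells on day 12, and at 16.2 CPM in positive and 86.0 CPM in negative cells on day 9.

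The share of mural cells was lower in the day 12 library, at 3.40% (3.04 to 3.80) against 5.69% (5.19 to 6.22) in the day 9 library. The difference was -2.28 percentage points (-2.93 to -1.65). Among cells of at least 2000 UMIs the difference was -0.882 points (-1.57 to -0.187), and with a marker level of 10000 CPM it was -1.39 points (-1.92 to -0.864). Marker RNA outside the mural cells was higher in the day 9 library too. MYH11 had a UMI in 3.97% of the other cells on day 12 and 14.9% on day 9, and in 1.92% of immune cells on day 12 and 5.13% on day 9. Thinned to 1000 UMIs, the MYH11 shares in the other cells were 1.67% on day 12 and 5.74% on day 9. Its part in the share was not tested.

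Positive cells were 188 of the 305 day 12 mural cells (61.6%, 55.9 to 67.1) and 315 of the 454 day 9 mural cells (69.4%, 64.9 to 73.6). The difference was -7.74 points (-14.8 to -0.671) at full depth, and -6.12 points (-13.5 to 1.29) after thinning each cell to 1000 UMIs, so that its interval then spanned 0. DES, which encodes the muscle intermediate filament desmin, had a UMI in 12.5% of day 12 and 11.7% of day 9 mural cells. In immune cells the DES shares were 0.175% on day 12 and 0.477% on day 9. A cell with no MYH11 UMI at these depths is not shown to lack the gene, so the negative kind can hold smooth muscle cells with few captured molecules.

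Between the days, 158 of 2893 tested genes (5.46%) were at least 2-fold higher in day 12 than in day 9 mural cells, and 101 (3.49%) were at least 2-fold lower. A gene was tested at 50 CPM or more in the mural cells of at least 1 day, and the median log2 ratio over all tested genes was 0.01. The levels of 89 of the 158 genes and of 53 of the 101 genes were at or above those of the other cells in the library where they were higher. The 10 genes furthest apart in each direction were taken from these, while genes of the lists are named whatever their level in the other cells. Of the 158 genes, 70 were also at least 2-fold higher on day 12 in all other cells, and 82 were at least 2-fold higher in both positive and negative cells. Of the 101 genes, 44 were also at least 2-fold lower in the other cells, and 55 were so in both kinds. Of all 2893 tested genes, 178 (6.15%) were at least 2-fold higher on day 12 and 145 (5.01%) at least 2-fold lower in the other cells.

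The share of contractile genes that were 2-fold apart between the days was near that of all tested genes, of which 259 (8.95%) were so in either direction. Of 21 tested contractile genes, 0 were at least 2-fold higher and 2 were at least 2-fold lower on day 12, with a median log2 ratio of -0.37 in mural cells and -0.66 in the other cells. The rule genes were close as well: ACTA2 stood at 5196 CPM in day 12 mural cells and 6398 CPM in day 9 mural cells, and MYH11 at 1091 CPM in day 12 mural cells and 1219 CPM in day 9 mural cells. CNN1 was at 297 CPM in day 12 mural cells and 656 CPM in day 9 mural cells, which is 2.20-fold (1.89 to 2.58) lower on day 12. By kind CNN1 was at 434 CPM in positive cells on day 12 and 877 CPM on day 9, and at 70.6 CPM in negative cells on day 12 and 68.1 CPM on day 9, which is 2.02-fold (1.72 to 2.38) lower on day 12 in positive cells and a ratio of 1.04 (0.525 to 2.05) in negative cells. The other contractile gene past 2-fold was PCP4, on chromosome 13 between 203412479 and 203479216. It was at 65.05 CPM in day 12 mural cells and 638 CPM in day 9 mural cells, 9.81-fold (7.33 to 13.4) lower on day 12, with 23.4 CPM in positive cells on day 12 and 291 CPM on day 9, and 134 CPM in negative cells on day 12 and 1559 CPM on day 9.

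Pericyte genes leaned towards day 12. Of 15 tested, 12 had a log2 ratio above 0, as 50.6% of all tested genes did, with a median of 0.55 in mural cells and -0.17 in all other cells, and 3 were at least 2-fold higher (NDUFA4L2, MCAM and ITGA1) with 0 lower. NDUFA4L2 was at 359.8 CPM in day 12 mural cells and 104 CPM in day 9 mural cells, 3.46-fold (2.76 to 4.38) higher on day 12. MCAM, the adhesion molecule CD146 of pericytes and endothelium, was at 214 CPM in day 12 mural cells and 90.2 CPM in day 9 mural cells, 2.37-fold (1.82 to 3.10) higher on day 12. ITGA1 was at 154 CPM in day 12 mural cells and 62.7 CPM in day 9 mural cells, 2.46-fold (1.79 to 3.39) higher on day 12. RGS5 itself, a rule gene, was at 3836 CPM in day 12 mural cells and 2797 CPM in day 9 mural cells. The day 12 library held a greater share of negative cells at full depth, so the kinds are given apart. NDUFA4L2 was at 121 CPM in positive cells on day 12 and 45.9 CPM on day 9, and at 756 CPM in negative cells on day 12 and 258 CPM on day 9. MCAM was at 251 CPM in positive cells on day 12 and 99.8 CPM on day 9, and at 152 CPM in negative cells on day 12 and 64.5 CPM on day 9.

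**Figure D4:**
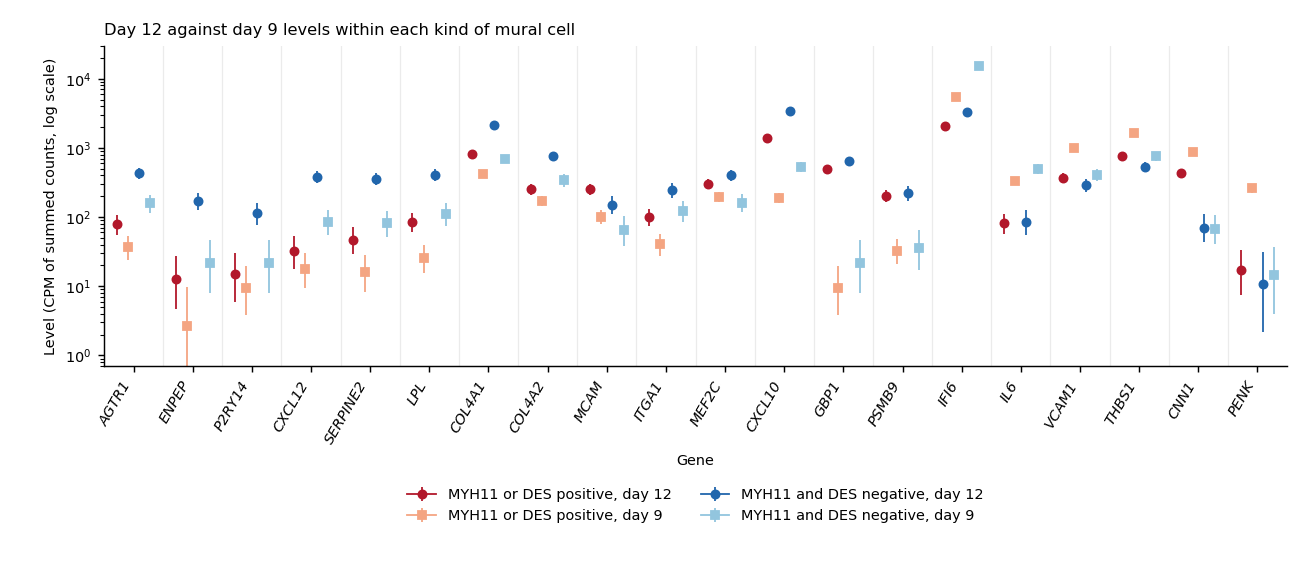
Levels of 20 genes in CPM, on a log axis, in positive and negative mural cells of the day 12 and day 9 libraries, each point a sum over all cells of its kind and each bar its exact 95% Poisson interval. AGTR1, COL4A1 and GBP1 lie higher on day 12 in both kinds, ENPEP does so with overlapping bars in positive cells, and IL6 lies lower on day 12 in both.

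A receptor and an enzyme of the angiotensin system were at least 2-fold higher on day 12. AGTR1 was at 212 CPM in day 12 mural cells and 69.6 CPM in day 9 mural cells, 3.05-fold (2.29 to 4.10) higher on day 12, with 78.7 CPM in positive cells on day 12 and 36.4 CPM on day 9, and 434 CPM in negative cells on day 12 and 158 CPM on day 9. ENPEP, the cell surface aminopeptidase A that cuts angiotensin II to angiotensin III, was at 71.7 CPM in day 12 mural cells and 7.84 CPM in day 9 mural cells, 9.14-fold (4.32 to 22.2) higher on day 12, with 12.8 CPM in positive cells on day 12 and 2.70 CPM on day 9, and 169 CPM in negative cells on day 12 and 21.5 CPM on day 9. In positive cells this rests on 6 UMIs on day 12 and 2 on day 9, a ratio of 4.73 with an interval of 0.846 to 47.9 that spans 1. In all other cells ENPEP was at 6.15 CPM on day 12 and at 3.23 CPM on day 9. AGTR1 in the other cells was at 74.7 CPM on day 12 and at 15.4 CPM on day 9. P2RY14, a receptor for UDP-glucose, was the other of 5 tested vasoactive receptors past 2-fold, at 51.8 CPM in day 12 mural cells and 12.7 CPM in day 9 mural cells, 4.06-fold (2.12 to 8.30) higher on day 12. Across all tested genes, 5.46% were at least 2-fold higher on day 12. The vasoactive list had a median log2 ratio of 0.55 in mural cells and 0.31 in the other cells.

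Basement membrane genes were mostly higher on day 12, in mural cells and in the other cells. Of 15 tested basement membrane genes, 14 had a log2 ratio above 0, 2 were at least 2-fold higher (COL4A1 and COL4A2) and 1 was at least 2-fold lower (LAMB2), with a median of 0.48 in mural cells and 0.45 in the other cells. The shares of all tested genes were 50.6% above 0, 5.46% at least 2-fold higher and 3.49% at least 2-fold lower. COL4A1 and COL4A2 are neighbours with overlapping annotated ends on chromosome 11, COL4A1 between 76858332 and 76997409 and COL4A2 between 76996885 and 77161617. COL4A1 was at 1329 CPM in day 12 mural cells and 498 CPM in day 9 mural cells, 2.67-fold (2.40 to 2.98) higher on day 12, and COL4A2 was at 443 CPM in day 12 mural cells and 218 CPM in day 9 mural cells, 2.04-fold (1.71 to 2.43) higher. In all other cells COL4A1 was at 1007 CPM on day 12 and at 321 CPM on day 9. LAMB2 was at 46.5 CPM in day 12 mural cells and 96.0 CPM in day 9 mural cells, 2.07-fold (1.39 to 3.13) lower on day 12.

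Interstitial matrix genes were less uniform. Of 22 tested, 0 were at least 2-fold higher and 4 were at least 2-fold lower on day 12 (COL14A1, PRELP, THBS1 and POSTN), with a median log2 ratio of 0.17 in mural cells and -0.30 in the other cells. Among all tested genes, 5.46% were at least 2-fold higher and 3.49% were at least 2-fold lower. COL14A1, a collagen that sits on fibril surfaces, was at 43.8 CPM in day 12 mural cells and 136 CPM in day 9 mural cells. PRELP, a proteoglycan that anchors basement membranes to connective tissue, was at 17.3 CPM in day 12 mural cells and 82.3 CPM in day 9 mural cells. THBS1, thrombospondin 1, an inhibitor of vessel growth, was at 677 CPM in day 12 mural cells and 1386 CPM in day 9 mural cells, 2.05-fold (1.85 to 2.27) lower on day 12. Its level in the other cells was 186 CPM on day 12 and at 104 CPM on day 9. POSTN, the matricellular protein periostin, was at 18.6 CPM in day 12 mural cells and 54.9 CPM in day 9 mural cells. No matrix enzyme of 11 tested passed 2-fold in either direction.

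Inflammatory signals were divided. CXCL12 was at 163 CPM in day 12 mural cells and 36.3 CPM in day 9 mural cells, 4.503-fold (3.10 to 6.69) higher on day 12, with 31.9 CPM in positive cells on day 12 and 17.5 CPM on day 9, and 381 CPM in negative cells on day 12 and 86.0 CPM on day 9. IL6, the interleukin 6 gene on chromosome 9 between 91506421 and 91510830, was at 82.3 CPM in day 12 mural cells and 378 CPM in day 9 mural cells, 4.60-fold (3.51 to 6.11) lower on day 12, and had a UMI in 27 day 12 and 52 day 9 mural cells. In all other cells IL6 had the opposite order, at 60.8 CPM on day 12 and at 13.7 CPM on day 9. CXCL8, a neutrophil chemokine, was the other of 7 tested chemokine and cytokine genes at least 2-fold lower on day 12, and CCL5, a T and NK cell product, was the other at least 2-fold higher. CCL5 was at 539 CPM in day 12 mural cells and 224 CPM in day 9 mural cells, and its level in immune cells was 4066 CPM on day 12 and that on day 9 was 2460.4 CPM. CEBPD, a transcription factor induced with IL6 in acute responses, was at 49.1 CPM in day 12 mural cells and 204 CPM in day 9 mural cells, 4.15-fold (2.91 to 6.06) lower on day 12. Adhesion genes gave MCAM and ITGA1 at least 2-fold higher and VCAM1, the ligand for leukocyte integrin alpha 4, at least 2-fold lower of 10 tested, with VCAM1 at 339 CPM in day 12 mural cells and 826 CPM in day 9 mural cells.

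Interferon-stimulated genes were mostly higher on day 12, in mural cells and in all other cells. Of 18 tested, 12 had a log2 ratio above 0, 10 were at least 2-fold higher (among them GBP1, IRF7, STAT2, IFIT1, CXCL10, PSMB8, PSMB9, TAP1 and SOCS1) and 1, IFI6, was at least 2-fold lower. Of all tested genes, 50.6% had a ratio above 0, 5.46% were at least 2-fold higher and 3.49% were at least 2-fold lower. The list's median log2 ratio was 1.07 in mural cells and 1.19 in all other cells. GBP1, a guanylate-binding protein of host defence, was at 546 CPM in day 12 mural cells and 12.7 CPM in day 9 mural cells, 42.8-fold (24.8 to 81.1) higher on day 12, and at 841 CPM on day 12 and at 29.1 CPM on day 9 in all other cells. PSMB8, a subunit of the immunoproteasome, was at 328 CPM in day 12 mural cells and 79.4 CPM in day 9 mural cells, 4.13-fold (3.20 to 5.38) higher. IFI6 ran against them, at 2519.6 CPM in day 12 mural cells and 8067 CPM in day 9 mural cells, and at 3679 CPM on day 12 and at 9867 CPM on day 9 in all other cells.

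The interferon genes that were called higher include subunits and transporters of antigen processing (PSMB8, PSMB9 and TAP1) beside signalling proteins (STAT2, IRF7 and SOCS1). TAP1, which carries peptides to class I molecules, was at 163 CPM in day 12 mural cells and 43.1 CPM in day 9 mural cells, 3.79-fold (2.66 to 5.47) higher on day 12. SAMD9, another antiviral gene, which was among the 10 genes furthest above 2-fold, was at 66.4 CPM in day 12 mural cells and 13.7 CPM in day 9 mural cells, 4.84-fold (2.63 to 9.48) higher. Both kinds of mural cell held the order for GBP1, with 489 CPM in positive cells on day 12 and 9.44 CPM on day 9, and 639 CPM in negative cells on day 12 and 21.5 CPM on day 9. Between the kinds, 10 of 16 tested interferon genes were lower in positive cells in both libraries by any amount, as were 771 of all 2577 tested genes (29.9%), and 1, CXCL10, was at least 2-fold lower.

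**Figure D5:**
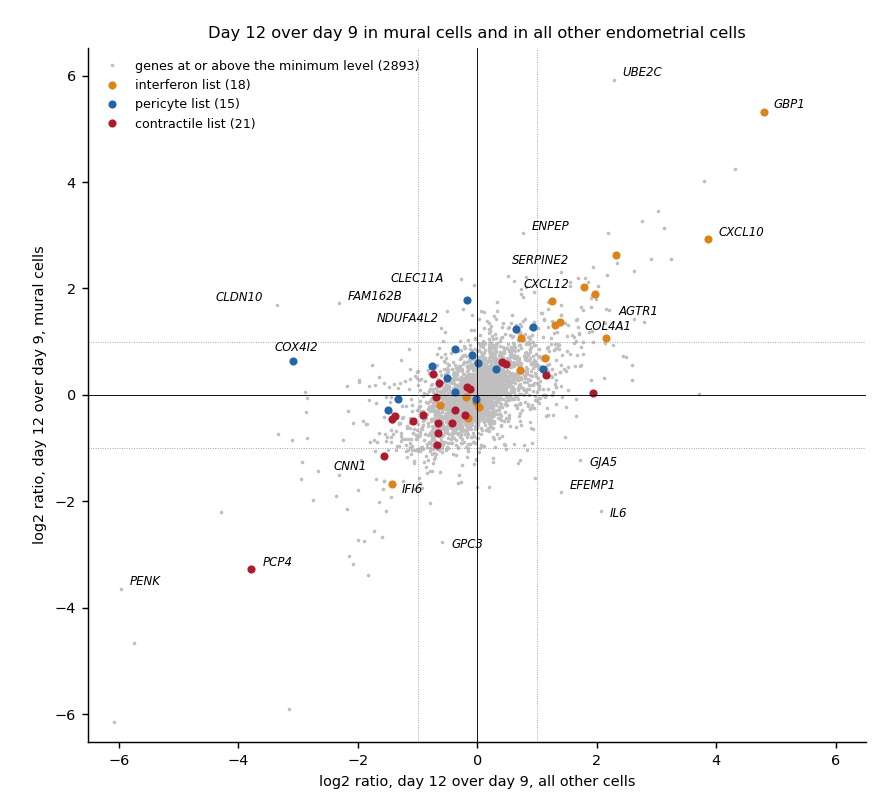
Log2 ratio of day 12 over day 9 for each of 2893 genes, in mural cells on the vertical axis and in all other cells on the horizontal axis. Dotted lines mark 2-fold. GBP1 and CXCL10 of the interferon list lie at the upper right, while IL6 and EFEMP1 lie at the lower right, lower on day 12 in mural cells and higher on day 12 in the other cells.

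Of the Notch, PDGF and TGF-beta and BMP lists, whose signals maintain mural cells, 1 gene was 2-fold apart between the days, where 8.95% of all tested genes were. Of 7 tested Notch genes 0 passed 2-fold, 6 had a log2 ratio above 0, and the median was 0.48 in mural cells and 0.24 in the other cells. NOTCH3 was at 851 CPM in day 12 mural cells and 642 CPM in day 9 mural cells, with 836 CPM in positive cells on day 12 and 688 CPM on day 9, and 876 CPM in negative cells on day 12 and 519.6 CPM on day 9. Of 4 tested PDGF genes 0 passed 2-fold, and PDGFRB was at 292 CPM in day 12 mural cells and 235 CPM in day 9 mural cells. The TGF-beta and BMP list had a median of -0.37 in mural cells and -0.26 in the other cells, with 1 of 13 genes at least 2-fold higher. That gene was CCN2, connective tissue growth factor, at 450.0 CPM in day 12 mural cells and 198 CPM in day 9 mural cells, 2.27-fold (1.90 to 2.72) higher on day 12.

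Vessel growth, growth factor and hormone genes were thinly covered. VEGFD, a ligand for lymphatic and vascular growth, was the only 1 of 5 tested vascular signal genes past 2-fold, at 59.7 CPM in day 12 mural cells and 11.8 CPM in day 9 mural cells from 45 UMIs on day 12 and 12 on day 9. None of the 4 tested hormone receptors passed 2-fold. Of 6 tested genes of the insulin-like growth factor system, IGFBP6 was at least 2-fold lower on day 12, at 63.7 CPM in day 12 mural cells and 183 CPM in day 9 mural cells. HPGD, the enzyme that inactivates prostaglandins, was the 1 of 3 tested prostaglandin genes at least 2-fold lower, at 29.2 CPM in day 12 mural cells and 73.5 CPM in day 9 mural cells.

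Beyond the lists, the genes furthest above 2-fold on day 12 were UBE2C, ENPEP, HMGB2, SERPINE2, ATG12, SAMD9, TNFRSF21, CXCL12, CLEC11A and LPL. SERPINE2, a protease nexin that blocks thrombin and plasminogen activators, was at 165 CPM in day 12 mural cells and 34.3 CPM in day 9 mural cells, 4.80-fold (3.27 to 7.20) higher on day 12, with 46.8 CPM in positive cells on day 12 and 16.2 CPM on day 9, and 360.1 CPM in negative cells on day 12 and 82.4 CPM on day 9. LPL was at 206 CPM in day 12 mural cells and 49.0 CPM in day 9 mural cells, 4.199-fold (3.03 to 5.90) higher, and at 97.7 CPM on day 12 and at 32.6 CPM on day 9 in all other cells. CLEC11A, a secreted growth factor of the C-type lectin family, was at 96.9 CPM in day 12 mural cells and 22.5 CPM in day 9 mural cells, and TNFRSF21, a death receptor, was at 150.0 CPM in day 12 mural cells and 32.3 CPM in day 9 mural cells. CXCL12, SERPINE2 and LPL were also among the 10 genes furthest below 2-fold in positive cells, so all 3 were highest in negative cells of day 12. LPL in those cells was at 406 CPM.

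The genes furthest below 2-fold were PENK, PCP4, GPC3, IL6, CEBPD, RRAD, ANGPTL1, EFEMP1, SNX18 and PCSK1N. PENK, the precursor of enkephalin peptides, was at 14.6 CPM in day 12 mural cells and 194 CPM in day 9 mural cells, and at 1.78 CPM on day 12 and at 173 CPM on day 9 in all other cells. The day 9 level came mostly from positive cells, with 194 of 198 UMIs, at 17.0 CPM in positive cells on day 12 and 262 CPM on day 9, and 10.6 CPM in negative cells on day 12 and 14.3 CPM on day 9. In stromal marker cells PENK was at 2.62 CPM on day 12 and at 244 CPM on day 9, above the mural level of that day. GPC3, a heparan sulphate proteoglycan of the cell surface, was at 11.9 CPM in day 12 mural cells and 87.2 CPM in day 9 mural cells, 7.30-fold (3.68 to 16.5) lower on day 12. GPC3 in stromal marker cells was at 4.48 CPM on day 12 and at 6.13 CPM on day 9. RRAD, a small GTPase that restrains calcium channels, was at 137 CPM in day 12 mural cells and 522 CPM in day 9 mural cells, 3.82-fold (3.09 to 4.76) lower on day 12. ANGPTL1, an angiopoietin-like secreted protein, was at 21.2 CPM in day 12 mural cells and 82.3 CPM in day 9 mural cells, 3.88-fold (2.25 to 7.09) lower.

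Mural cells with RNA of mitotic genes were found in the day 12 library. At least 2 UMIs of 9 genes of the G2 and M phases occurred in 7 of 305 mural cells (2.30%, 0.928 to 4.67) on day 12, and in 0 of 454 on day 9 (0 to 0.809), where a floor of 3 cells would be a share of 0.661%. After thinning to 1000 UMIs they were 6 on day 12 and 0 on day 9. UBE2C, a ubiquitin-conjugating enzyme of mitotic exit, gave 45 UMIs in 7 mural cells on day 12 and none on day 9, but 60% of its UMIs came from 1 cell. Against a floor of 3 counts over the day 9 group this is at least 20.3-fold higher on day 12. Of the 7 cells, 5 were positive and 2 negative. Of the 151 UMIs of these genes in day 12 mural cells, 64 came from 1 cell. Among endothelial marker cells the share was 7.40% of 622 on day 12 and 2.26% of 133 on day 9. Among all other cells it was 2.01% of 8657 on day 12, near the mural share, and 0.784% of 7530 on day 9. After thinning, the day 12 shares were 1.97% of mural cells and 0.993% of all other cells.

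Early response genes leaned lower on day 12, and heat shock genes were divided. Of 9 tested early response genes that are induced by enzymatic digestion, 0 passed 2-fold, with a median log2 ratio of -0.23 in mural cells and 0.16 in the other cells. In mural cells 2 of them had a ratio above 0 and 7 had one below 0, where 50.6% of all tested genes were above 0. The part of handling in the day contrasts was not tested. Of 7 tested heat shock genes, HSPH1 and DNAJB1 were at least 2-fold higher and HSPB1 was at least 2-fold lower on day 12. HSPB1, a small heat shock protein that is abundant in muscle, was at 727 CPM in day 12 mural cells and 1628 CPM in day 9 mural cells. Of the marker lists for other cells, the stromal list had 0 genes at least 2-fold higher and 1 lower of 12 (DPT), and GNLY of the T and NK list was at least 2-fold higher. Mural cells with at least 3 T and NK UMIs were 6.89% on day 12 and 2.20% on day 9, and the part of such RNA in CCL5 and GNLY was not tested. Of 3 tested epithelial genes, the keratins KRT8 and KRT18 were at least 2-fold lower on day 12, where 0.328% of mural cells had at least 3 epithelial UMIs against 2.86% on day 9.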

How the data were processed

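The deposited files hold raw UMI counts per gene and cell barcode, as the authors' pipeline wrote them. They were made with Cell Ranger 6.1.2 on the Sscrofa11.1 pig genome, per the submitters' processing notes and the file headers, and the sources used here do not give how barcodes were called as cells. The files list 21280 genes, 14811 of them with a symbol, and a table of gene names added 688 symbols. Gene positions are RefSeq's for Sscrofa11.1. Only the endometrium libraries, 2 of 4, were used.

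Cells were filtered and chosen by the thresholds given above, and counts were summed per kind of cell and library and scaled to a total of 1000000 (CPM). Log2 ratios had 1 CPM added, and genes needed 50 CPM. Thinning drew 1000 UMIs per cell without replacement (seed 0). No doublet caller was applied, and cells above the 99th percentile of UMIs were left out as an alternative. Intervals are exact at 95% (binomial for shares, conditional binomial for ratios, Poisson for levels) and a count of 0 was given a floor of 3 counts. The interval of a difference of shares joins the exact limits of both shares. UMIs limit but do not remove amplification error, and intervals cover counting error only.

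Members, the 38 gene lists (480 genes, 450 matched) and the comparisons were chosen with earlier results of these data known. With 1 library per group no test was possible, and none was made. Named genes are the 20 with the greatest ratio of mural over other cells in the library where it is smaller, the 10 highest and 10 lowest between days among genes at or above the other cells, the 10 highest and 10 lowest between the kinds by the ratio nearer 1, and listed genes (up to 6 per list, highest first, plus any that is counted past 2-fold). Some results are not reported here. Scripts were tested on simulated data. Python 3.11.15, numpy 2.4.6, scipy 1.17.1, pandas 2.3.3 and matplotlib 3.10.9 were used.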

Additional observations from a re-analysis of the deposited data

Results flagged for a closer look

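For 5 genes the day contrast ran one way in the mural cells and the other way in all other endometrial cells summed together, by at least 2-fold in both. With 1 library per day, none of these differences was tested. The make-up of the other cells differed between the libraries, with 622 endothelial marker cells on day 12 and 133 on day 9. Epithelial marker cells numbered 284 on day 12 and 745 on day 9. The part of this make-up in the contrasts was not tested. IL6 had a log2 ratio of day 12 over day 9 of -2.19 in mural cells and 2.07 in all other cells. EFEMP1, the matrix protein fibulin 3, had ratios of -1.83 in mural cells and 1.39 in the others, and stood at 57.1 CPM in day 12 mural cells and 206 CPM in day 9 mural cells. EFEMP1 was also lower on day 12 in endothelial marker cells (3.20 CPM, against 13.3 CPM on day 9) and immune marker cells (6.44 against 13.3 CPM). It was higher on day 12 in stromal marker cells (43.0 against 12.4 CPM) and epithelial marker cells (17.4 against 3.95 CPM). GJA5, the gap junction protein connexin 40 of arterial walls, had ratios of -1.22 in mural cells and 1.72 in the others, at 21.2 CPM in day 12 mural cells and 51.0 CPM in day 9 mural cells. In all other cells GJA5 was at 4.41 CPM on day 12 and at 0.639 CPM on day 9. In endothelial marker cells GJA5 was at 25.4 CPM on day 12 and at 6.66 CPM on day 9.

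CLDN10, a claudin of tight junctions, had ratios of 1.70 in mural cells and -3.35 in the others, at 174 CPM in day 12 mural cells and 52.9 CPM in day 9 mural cells, and at 1.498 CPM on day 12 and at 24.5 CPM on day 9 in the other cells. Its day 9 level in epithelial marker cells was 92.3 CPM. FAM162B, a gene often listed with pericytes, had ratios of 1.72 in mural cells and -2.32 in the others, at 329 CPM in day 12 mural cells and 98.98 CPM in day 9 mural cells. Its day 9 level in epithelial marker cells was 191 CPM.

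For 4 genes the contrast of positive and negative mural cells ran one way in the day 12 library and the other way in the day 9 library, by at least 2-fold in both, and this difference was not tested either. HAPLN1, which links hyaluronan to proteoglycans, had a log2 ratio of positive over negative cells of 1.54 on day 12 and -1.33 on day 9. It was at 126 CPM in positive and 42.4 CPM in negative cells on day 12, and at 58.0 CPM in positive and 147 CPM in negative cells on day 9. DKK1, a secreted inhibitor of Wnt signalling, had ratios of 1.04 on day 12 and -1.33 on day 9, from 243 UMIs in 83 mural cells on day 12 and 55 UMIs in 34 on day 9. DCLK1, a kinase that binds microtubules, had ratios of 1.37 on day 12 and -1.40 on day 9, from 59 UMIs on day 12 and 112 on day 9. SERPINF1, which encodes the vessel growth inhibitor PEDF, had ratios of 1.05 on day 12 and -1.63 on day 9, and stood at 140.4 CPM in positive and 67.1 CPM in negative cells on day 12, and at 155 CPM in positive and 484 CPM in negative cells on day 9. In stromal marker cells SERPINF1 was at 522 CPM on day 12 and at 661 CPM on day 9. Levels there were 521 CPM for HAPLN1, 1647 CPM for DKK1 and 254 CPM for DCLK1 on day 12. On day 9 they were 272 CPM for HAPLN1, 166 CPM for DKK1 and 203 CPM for DCLK1. All 4 genes were lower in mural cells. The summed stromal markers changed order too, at 17289 CPM in positive and 16418 CPM in negative cells on day 12. On day 9 they stood at 11884 CPM in positive and 18148 CPM in negative cells. The part of stromal RNA was not tested.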

How the results depend on the processing

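No paired analysis was possible because each day has 1 library. For the shares and the counts of genes, 92 values under an alternative stayed within the tolerance (the counting interval for a share, 1.5 times for a count), 12 moved and 0 reversed. The difference in the share of mural cells moved to -0.882 points with at least 2000 UMIs per cell and to -1.39 points with a marker level of 10000 CPM. Thinning every cell to 1000 UMIs raised the count of genes at least 2-fold lower on day 12 to 168. A minimum of 20 CPM gave 356 genes higher and 260 lower on day 12, and 295 higher and 135 lower in positive cells. No minimum gave 1452 higher and 1205 lower on day 12, 1014 higher and 355 lower in positive cells, and 267 genes at least 4-fold over the other cells; these 2 alternatives compare more genes, with fewer counts each. Leaving out mural cells with at least 2% stromal UMIs, and weighting both kinds equally, were chosen after seeing the data and moved no share or count past these tolerances. Of the values of the named genes, 7 of 320 between days, 21 of 340 between kinds and 59 of 320 of mural over other cells moved past their counting interval, and none reversed or dropped under 2-fold. With 5 CPM added the log2 ratio of mural over other cells was 3.83 for FABP4 (5.62 with 1 CPM), 4.10 for CCN3 (5.76) and 3.38 for NPY1R (4.56). Thinning took the positive over negative ratio of ACTG2 to 1.55 (4.80) and of CCN3 to 1.13 (3.23), and cells of at least 2000 UMIs took the day ratio of PENK to -5.52 (-3.64). Depth limits detection: a gene under 50 CPM averages well below 1 UMI per cell.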
